A study of Mus musculus with 24 samples.

Results

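Serpins are a family of protease inhibitors, and 40 mouse serpin genes were read by 56 probe sets on the arrays of this study, among 18193 genes with a name of their own. The members are all genes whose symbol starts with Serpin, a clade letter from a to i and a number, on probe sets that carry 1 gene name. The probe set with the highest mean over all arrays stood for each gene. By clade there were 14 genes of clade a, 18 of clade b, 2 each of f and i, and 1 each of c, d, g and h. After removal of probe sets with low values, 24 members were tested: 15 of clade b, 8 of the extracellular clades a, c, d, f, g and i, and Serpinh1, which acts in the endoplasmic reticulum and was kept apart.

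RNA came from sorted mammary cells of C57BL6/J mice. The tumour groups were from 5 independent adenocarcinomas (A to E) of Apc+/1572T mice. That allele, present in every cell, truncates Apc, a negative regulator of Wnt signalling. The normal groups were from 3 pools of glands (F to H) of Apc+/+ mice; neither ages nor the number of mice in a pool are in the sample labels used. From each tumour and pool 3 populations of 10000 cells were sorted, all after removal of lineage-marked cells: Lin-, CD29+CD24+ and CD29hiCD24+. The last is the gate that the study used for stem cells, and CD29+CD24+ is its more differentiated counterpart. This gave 5 arrays in each tumour group and 3 in each normal group, 24 in all. A pool stands for several mice, so the spread between pools is not the spread between mice.

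A serpin presents a flexible loop as bait to a protease, which cuts it and is then trapped in a covalent complex. A few members have lost this activity and serve other tasks. Clade b serpins mostly lack a signal peptide and stay inside epithelial cells and leukocytes, where they guard against proteases that leak from granules and lysosomes. The other clades are largely secreted and control coagulation, fibrinolysis, complement and inflammation. In the mammary gland the family is best known for maspin, the product of Serpinb5, which is made by myoepithelial cells, and for the plasminogen activator inhibitors.

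Signals are log2 values, so a difference of 1 is a 2-fold difference. About 40% of all values lay at or under 2.83, called the low band here, and array medians ran from 3.26 to 3.41. The gates could be read in the keratins: Krt14, a basal keratin, was 14.35 ± 0.07 (SD, n = 3) in the upper normal gate, CD29hiCD24+, and 3.97 ± 0.24 (SD, n = 3) in the lower one. In tumours it was 14.67 ± 0.15 (SD, n = 5) and 14.64 ± 0.15 (SD, n = 5). Krt14 thus parted the gates in normal glands and not in tumours. Krt8, a luminal keratin, was 13.88 ± 0.57 and 14.90 ± 0.035 in the upper and lower normal gates (SD, n = 3). Other markers did differ between the tumour gates at an unadjusted p under 0.05 in limma. Of 12 basal markers 6 were higher and 0 lower in the upper gate, and of 13 luminal markers 0 were higher and 8 lower. At an adjusted p under 0.05 in limma, the basal markers Acta2, Cnn1 and Myl9 were higher and the luminal markers Elf5 and Pgr lower. The share of all genes at an unadjusted p under 0.05 was not counted. The 1 array of pool F for normal CD29hiCD24+ cells stood apart: its mean over 9 macrophage and dendritic markers was 9.60, against 4.27 and 4.03 in pools G and H, and its mean over 10 endothelial markers was 9.54 against 6.76 and 7.59. Sample descriptions carry running numbers, 19 to 24 for tumours A and B, 56 to 64 for C and D, and 82 to 95 for tumour E and all pools. What the numbers count is not stated, and only tumour E shares its stretch with normal samples. In bulk RNA, fewer cells of a type and less RNA per cell cannot be told apart.

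Of the 24 tested members, 15 were called in at least 1 of 6 comparisons, at an adjusted p under 0.05 in limma's test over 13485 genes, against 71.4% of all genes called in at least 1. Of the members, 7 were flat, with a range under 1 log2 unit over all 24 arrays and at most 0.82: Serpina3a, Serpinb12, Serpinb6c, Serpinb6e, Serpinb9c, Serpinb9g and Serpind1, which encodes the thrombin inhibitor heparin cofactor II. Serpinb6e read 5.39 to 6.21 in every group and the other 6 stayed at or under 3.34; of the 7, Serpinb6c had a call, in 1 comparison. The 16 members that were not tested included antithrombin (Serpinc1), alpha-2-antiplasmin (Serpinf2) and most of the liver genes of clade a. For 15 of these 16 no array reached 3.3 on any probe set. The exception was Serpina1b, an alpha-1-antitrypsin gene, which read 5.64 in the pool F array of normal CD29hiCD24+ cells and 3.84 in the pool H array of normal Lin- cells. Its second probe set read 5.32 and 3.47 in the same 2 arrays.

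The largest differences in the family were those of Serpinb2, which encodes plasminogen activator inhibitor 2, an inhibitor of urokinase. Serpinb2 signal in tumours A to E was 11.92, 13.84, 13.87, 13.41 and 14.25 in Lin- cells, 11.96, 13.42, 13.48, 12.67 and 13.95 in CD29+CD24+ cells, and 10.80, 13.92, 13.74, 11.84 and 12.73 in CD29hiCD24+ cells. In pools F to H it was 5.29, 2.79 and 4.20 in Lin- cells, 2.70, 3.40 and 3.16 in CD29+CD24+ cells, and 3.12, 2.79 and 9.11 in CD29hiCD24+ cells. Every tumour array was above every normal array, tumour A was the lowest tumour in all 3 populations, and pool H alone among the normal CD29hiCD24+ arrays was far from the low band. Serpinb2 rose by 7.60 ± 1.04 (SE) in CD29hiCD24+ cells (adjusted p = 7.71e-06), 10.01 ± 1.04 in CD29+CD24+ cells (adjusted p = 1.09e-07) and 9.37 ± 1.04 in Lin- cells (adjusted p = 3.70e-07), as limma gave them. Without pool H the first of these was 9.65. Where the lower group sits in the low band, the size of a difference is compressed.

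Serpinb8, whose product binds furin-like and trypsin-like proteases, behaved alike with less spread. Its signal in tumours A to E was 9.52, 10.31, 10.63, 11.17 and 10.82 in Lin- cells, 9.18, 9.84, 10.23, 10.20 and 10.02 in CD29+CD24+ cells, and 8.89, 9.27, 9.15, 8.65 and 9.45 in CD29hiCD24+ cells. The pools read 4.76, 4.99 and 5.92, then 4.61, 4.92 and 4.99, then 5.78, 4.04 and 4.24 in the same order of populations. No tumour array overlapped a normal one. Serpinb8 rose by 5.26 ± 0.38 in Lin- cells, 5.05 ± 0.38 in CD29+CD24+ cells and 4.40 ± 0.38 in CD29hiCD24+ cells (adjusted p = 9.62e-10, 9.54e-10 and 1.99e-08).

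**Figure D1:**
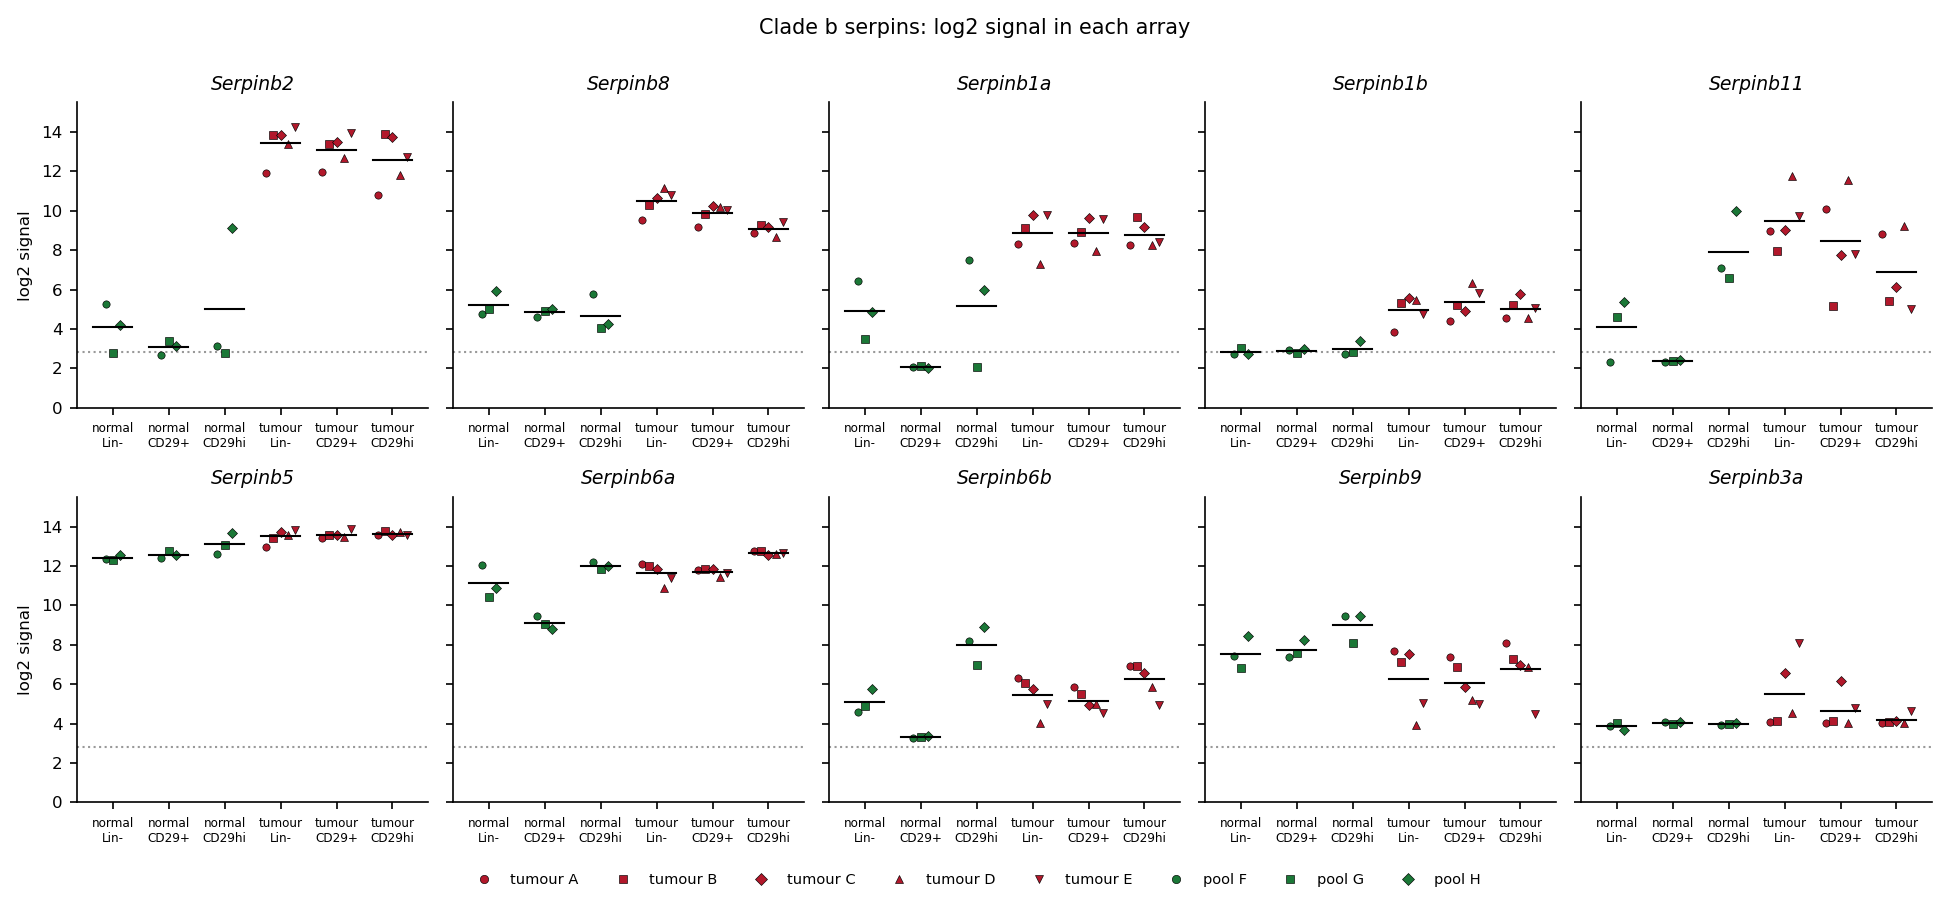
Log2 signal of 10 clade b serpins (y axis) in each array of the 6 groups (x axis: normal and tumour Lin-, CD29+CD24+ and CD29hiCD24+ cells); marker shapes give the tumour or pool, black lines the group means, and the dotted line the low band at 2.83. Serpinb2 and Serpinb8 were higher in every tumour array than in any normal one, with pool H at 9.11 for Serpinb2, while Serpinb6a and Serpinb6b were lowest in normal CD29+CD24+ cells.

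Serpinb1a encodes an inhibitor of neutrophil elastase and cathepsin G. In tumours A to E its signal was 8.30, 9.12, 9.78, 7.32 and 9.77 in Lin- cells, 8.36, 8.94, 9.66, 7.94 and 9.57 in CD29+CD24+ cells and 8.27, 9.67, 9.20, 8.28 and 8.44 in CD29hiCD24+ cells. In pools F to H it was 6.46, 3.48 and 4.86 in Lin- cells, 2.07, 2.12 and 2.02 in CD29+CD24+ cells, and 7.51, 2.08 and 5.96 in CD29hiCD24+ cells. The tumours were even across gates, and the normal CD29hiCD24+ arrays were spread over more than 5 log2 units, with pool F highest. Serpinb1a rose by 6.82 ± 0.87 in CD29+CD24+ cells (adjusted p = 1.66e-06), 3.93 ± 0.87 in Lin- cells (0.000984) and 3.59 ± 0.87 in CD29hiCD24+ cells (adjusted p = 0.00241). Without pool G, whose CD29hiCD24+ array was low, the last was 2.04 (adjusted p = 0.0252). A second probe set, whose suffix marks it as shared between related transcripts, gave 2.13 ± 0.66, 2.06 ± 0.66 and 1.80 ± 0.66 in the same order of populations.

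Its paralog Serpinb1b was in or near the low band in all normal arrays, at 2.72 to 3.40, and read 3.85 to 6.33 in the 15 tumour arrays, with no overlap. Serpinb1b rose by 2.46 ± 0.39, 2.16 ± 0.39 and 2.05 ± 0.39 in CD29+CD24+, Lin- and CD29hiCD24+ cells (adjusted p = 2.94e-05, 0.00015 and 0.000297). Of 11 listed neutrophil markers 5 were tested, and Cxcr2, Ly6g, Mmp8, Camp, Ngp and Retnlg were not. The mean over the 5 tested markers was 7.18 to 9.37 in tumour arrays and 3.84 to 5.92 in normal ones. S100a8 and S100a9, a pair of calcium-binding proteins, rose in all 3 populations. Mmp9, a gelatinase, rose by 5.33 ± 1.02 in CD29hiCD24+ cells (adjusted p = 0.000302) and by 2.92 ± 1.02 in Lin- cells (0.0265), with a difference of 1.505 ± 1.02 in CD29+CD24+ cells (adjusted p = 0.263). Csf3r, the receptor of a neutrophil growth factor, differed by 0.12, 0.01 and 0.18 in CD29hiCD24+, CD29+CD24+ and Lin- cells (adjusted p = 0.412, 0.966 and 0.202), and Ltf, which encodes lactoferrin, by -2.72, -2.61 and -3.88 (adjusted p = 0.249, 0.269 and 0.0913). The part of neutrophil RNA in the differences of Serpinb1a and Serpinb1b was not tested.

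Serpinb11, which encodes a trypsin inhibitor of epithelia, depended on the gate. In tumours A to E it read 8.98, 7.94, 9.04, 11.75 and 9.76 in Lin- cells, 10.08, 5.16, 7.77, 11.58 and 7.82 in CD29+CD24+ cells, and 8.81, 5.42, 6.13, 9.23 and 5.003 in CD29hiCD24+ cells. In pools F to H it read 2.32, 4.62 and 5.35 in Lin- cells, 2.34, 2.36 and 2.43 in CD29+CD24+ cells, and 7.08, 6.60 and 9.998 in CD29hiCD24+ cells. Tumour D was the highest tumour in all 3 populations, and the CD29hiCD24+ groups overlapped. Serpinb11 rose by 6.11 ± 1.25 in CD29+CD24+ cells (adjusted p = 0.000428) and 5.40 ± 1.25 in Lin- cells (0.00149), and in CD29hiCD24+ cells the difference was -0.97 ± 1.25 (adjusted p = 0.579).

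Maspin, the product of Serpinb5, is a serpin without inhibitory activity. Serpinb5 was high in every array, at 12.33 to 13.65 in normal cells and 12.94 to 13.89 in tumour cells. It rose by 1.08 ± 0.19 in Lin- cells (adjusted p = 0.00012) and 1.02 ± 0.19 in CD29+CD24+ cells (0.00019). In CD29hiCD24+ cells it rose by 0.54 ± 0.19 (adjusted p = 0.0319), with overlapping groups, and this call was lost under 9 of 18 alternatives. The difference was 0.28 without pool F (adjusted p = 0.320), and 0.50 to 0.55 without tumour B, C or D or pool G, where the adjusted p was 0.0511 to 0.0979.

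The remaining clade b genes on chromosome 13 moved in other ways. Serpinb6a encodes an intracellular inhibitor of cathepsin G and trypsin-like proteases. It read 9.44, 9.04 and 8.78 in the normal CD29+CD24+ arrays and 11.81, 11.85, 11.83, 11.45 and 11.62 in the tumour CD29+CD24+ arrays. In CD29hiCD24+ cells it read 12.21, 11.84 and 12.01 in pools and 12.55 to 12.77 in tumours. Serpinb6a rose by 2.62 ± 0.27 in CD29+CD24+ cells (adjusted p = 1.20e-07); the differences in CD29hiCD24+ and Lin- cells were 0.65 ± 0.27 and 0.52 ± 0.27 (adjusted p = 0.0678 and 0.146). The former was called without pool F (0.75, adjusted p = 0.0235), the latter without tumour D (0.71, 0.0414) or pool F (0.97, 0.0041).

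Serpinb6b, a close relative, took opposite directions in the gates. It read 8.17, 6.96 and 8.88 in normal CD29hiCD24+ cells against 6.93, 6.90, 6.58, 5.86 and 4.93 in tumours, and 3.25, 3.32 and 3.39 in normal CD29+CD24+ cells against 5.87, 5.51, 4.94, 4.97 and 4.54 in tumours. It fell by 1.76 ± 0.53 in CD29hiCD24+ cells (adjusted p = 0.0112) and rose by 1.84 ± 0.53 in CD29+CD24+ cells (0.00701). The fall was -1.33 without pool H (adjusted p = 0.101) and -1.68 without pool F (adjusted p = 0.0541). The rise was 1.05 with the stretches of description numbers as a block (adjusted p = 0.0990).

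Serpinb9 encodes the inhibitor of granzyme B. Its signal in CD29hiCD24+ cells was 9.47, 8.10 and 9.45 in pools F to H and 8.07, 7.30, 6.99, 6.88 and 4.49 in tumours A to E, so tumour E was lowest. It fell by 2.26 ± 0.83 (adjusted p = 0.0358), and the call was lost under 6 alternatives. Without tumour C the difference was -2.32 (adjusted p = 0.0521), without tumour E -1.70 (0.0901), without pool F -2.03 (0.146) and without pool H -2.04 (0.133). In CD29+CD24+ and Lin- cells it was -1.69 ± 0.83 and -1.30 ± 0.83 (adjusted p = 0.109 and 0.233), the former -2.02 without tumour A (adjusted p = 0.0498). With the description numbers as a block, where tumour E is the tumour set against the pools, the 3 differences were -3.78, -3.21 and -2.82 (adjusted p = 0.000353, 0.00142 and 0.00437).

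Serpinb3a is a mouse counterpart of the squamous cell carcinoma antigens. It read 6.56 and 8.07 in the Lin- cells of tumours C and E, 6.18 and 4.81 in their CD29+CD24+ cells, and 4.01 to 4.63 in the other tumour arrays, while normal arrays read 3.65 to 4.08. In Lin- cells the difference was 1.62 ± 0.66 (adjusted p = 0.0540, or 0.0496 with the tumour or pool as a block), and the groups did not overlap. It gained a call under 6 alternatives in all, among them the description numbers as a block, at 2.70 (adjusted p = 0.00302), and without tumour A, B or D, at 1.97, 1.96 and 1.86. Without tumour E it was 0.98 (adjusted p = 0.145). The means over 17 squamous keratinocyte markers in tumour Lin- cells were also highest in tumours C and E, at 12.07 and 12.67 against 10.81, 11.12 and 11.78 in A, B and D; their part in this was not tested.

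Across the tumour against normal comparisons, the share of all tested genes called higher was 15.6% in CD29hiCD24+ cells, 16.4% in CD29+CD24+ cells and 13.9% in Lin- cells, and the share called lower was 22.9%, 27.1% and 26.6%. Of 15 tested clade b members, 5 were called higher and 2 lower in CD29hiCD24+ cells, 8 higher and 0 lower in CD29+CD24+ cells, and 7 higher and 0 lower in Lin- cells. Of 8 extracellular members the counts were 1, 4 and 2 higher and 0 lower in each. The median log2 differences were 0.09, 1.02 and 0.52 for clade b, 0.15, 1.52 and 0.43 for the extracellular clades, and -0.01, -0.01 and -0.08 for all genes. Members had to pass the filter on low values, so these counts describe the tested members and not the family. Without that filter, over all 40 members, 6 were called higher and 2 lower, 13 and 0, and 9 and 0 in the same order. In Lin- cells Serpina9 lost its call there (adjusted p = 0.0507), so these 9 are not all the same genes as with the filter. At an unadjusted p under 0.05 in limma, 7 tested serpins were higher and 3 lower in CD29hiCD24+ cells. In CD29+CD24+ cells these counts were 13 and 1, and in Lin- cells 11 and 0. The share of all genes at that threshold was not counted, here or for the unadjusted counts below. The seventh clade b call in Lin- cells was Serpinb6c, a flat gene, at 0.22 ± 0.09 (adjusted p = 0.0478); it was lost under 12 alternatives, among them with the tumour or pool as a block (adjusted p = 0.0560) and without tumour B, C or E or any 1 pool, and was 0.13 without tumour C (adjusted p = 0.107). The 3 comparisons draw on the same tumours and pools and are not independent of each other.

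Squamous keratinocyte markers were read beside clade b. Their mean was 10.81 to 12.67 in tumour Lin- cells, 9.29 to 11.41 in tumour CD29+CD24+ cells and 8.12 to 9.35 in tumour CD29hiCD24+ cells, against 4.11 to 5.48 in all normal arrays. Of the 17 markers, 16, 15 and 12 rose in these populations and 0 fell. From the CD29+CD24+ to the CD29hiCD24+ gate of tumours 7 of the 17 were called lower, and 12 at an unadjusted p under 0.05 in limma. Between these gates Serpinb8 differed by -0.81 ± 0.33 (adjusted p = 0.175) and Serpinb11 by -1.56 ± 1.08 (adjusted p = 0.476). Serpinb6b differed by 1.07 ± 0.46 (adjusted p = 0.190), and Serpinb6a rose by 0.96. Serpinb8 read lower in 5 of 5 tumours and Serpinb11 in 4 of 5, while Serpinb6a and Serpinb6b read higher in 5 of 5. The part of squamous cells in the serpin differences was not tested.

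**Figure D2:**
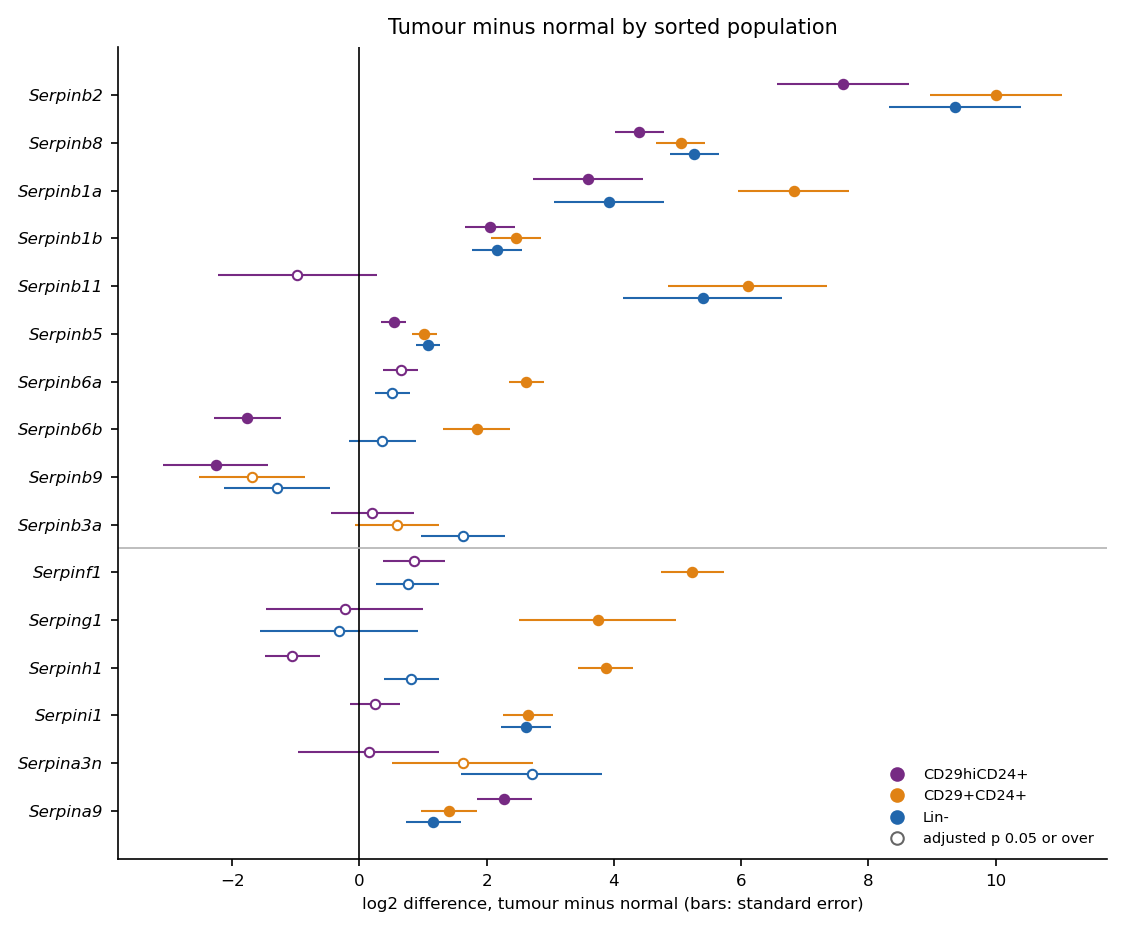
Log2 difference between tumour and normal (x axis; bars are standard errors) for 16 serpins (y axis; clade b above the grey line) in 3 sorted populations; open circles have an adjusted p of 0.05 or over. Serpinb2, at 7.60 to 10.01, and Serpinb8, at 4.40 to 5.26, were called in all 3 populations, whereas Serpinf1, Serping1 and Serpinh1 were called in CD29+CD24+ cells.

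Clade b genes lie in 2 clusters in the mouse genome, and the neighbours on chromosome 1 did not all move alike. By RefSeq's gene order the chromosome 1 cluster runs Serpinb5, Serpinb12, Serpinb3a, Serpinb11, Serpinb7, Serpinb2 and Serpinb8, counting only members measured here. Serpinb2, Serpinb8, Serpinb11 and Serpinb5 rose in tumour CD29+CD24+ and Lin- cells; Serpinb12 was flat at 2.63 to 3.10, and Serpinb7 did not pass the filter. On chromosome 13 the order is Serpinb1a, Serpinb6b, Serpinb9, Serpinb9b, Serpinb1b, Serpinb9c, Serpinb9d, Serpinb9g, Serpinb6e, Serpinb6c and Serpinb6a. There Serpinb6b and Serpinb9 lie between Serpinb1a and Serpinb1b, and only the outer pair of these 4 was called higher in tumour CD29hiCD24+ cells.

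Promoter windows from RefSeq (GRCm38.p6) were found for 34 of the 40 members, each from 250 bases before to 50 after a gene's start. Where a member had 2 windows, Serpinb2, Serpinb12 and Serpinb6a among them, the most upstream was used. They were searched on both strands for 3 motifs. TGANTCA is the site of AP-1 factors, TGAGTCA or TGACTCA, loosened to any middle base. It was in 6 of 7 windows of the chromosome 1 cluster, 0 of 10 of the chromosome 13 cluster and 2 of 17 of the other clades, and in 7.81% of all 32851 windows. CTTTGA, the core of TCF/LEF sites through which Wnt signalling acts, was in 1, 1 and 3 of these windows and in 16.0% of all. TATAAA was in 4, 1 and 3, and in 13.6% of all. The stretches from 200 bases before to 20 after the start are shown for 3 genes of chromosome 1 that rose in tumours and for Serpinb12, a flat neighbour with the same motif. All are on the plus strand, with the AP-1 letters in capitals.
Serpinb2, chr1:107511223-107511442: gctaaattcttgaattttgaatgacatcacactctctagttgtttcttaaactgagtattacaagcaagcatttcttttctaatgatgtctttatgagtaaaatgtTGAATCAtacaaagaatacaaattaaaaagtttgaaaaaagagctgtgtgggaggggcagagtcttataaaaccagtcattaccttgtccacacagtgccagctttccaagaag
Serpinb8, chr1:107589806-107590025: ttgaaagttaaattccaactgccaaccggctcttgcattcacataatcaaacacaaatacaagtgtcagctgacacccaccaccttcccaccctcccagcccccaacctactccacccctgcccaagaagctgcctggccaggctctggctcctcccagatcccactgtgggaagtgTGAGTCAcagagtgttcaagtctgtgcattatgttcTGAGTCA
Serpinb11, chr1:107362114-107362333: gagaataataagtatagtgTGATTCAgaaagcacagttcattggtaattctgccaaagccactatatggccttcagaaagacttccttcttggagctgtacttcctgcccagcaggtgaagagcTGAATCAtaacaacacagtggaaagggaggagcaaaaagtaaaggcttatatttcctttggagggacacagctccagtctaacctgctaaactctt
Serpinb12, chr1:106934249-106934468: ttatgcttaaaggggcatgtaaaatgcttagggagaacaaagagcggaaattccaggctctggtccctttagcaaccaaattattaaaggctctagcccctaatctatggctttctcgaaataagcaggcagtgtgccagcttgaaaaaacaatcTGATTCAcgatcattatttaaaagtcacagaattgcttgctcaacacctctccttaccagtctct
The motif starts at -94 in Serpinb2, at -23 and 14 in Serpinb8, at -181 and -76 in Serpinb11 and at -45 in Serpinb12, counted from the start site. Its middle base is G in Serpinb8, and A or T in Serpinb2, Serpinb11 and Serpinb12. Serpinb2 also holds TATAAA at -29. Serpinb12, which holds the motif, was flat, and the 10 chromosome 13 windows without these letters include Serpinb1b and Serpinb6a, which rose in tumour CD29+CD24+ cells. A match in these windows is a description of the letters and was not tested as a binding site. Whether its presence or absence had a part in any difference was not tested.

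Outside clade b, Serpinf1, Serping1 and the collagen chaperone gene Serpinh1 read lowest in the 3 normal CD29+CD24+ arrays and higher in every other array. Serpinf1 encodes pigment epithelium-derived factor, an inhibitor of vessel growth that does not inhibit proteases. It read 2.33, 2.37 and 2.40 in normal CD29+CD24+ cells, 8.56, 7.39 and 7.86 in normal CD29hiCD24+ cells, and 9.62, 7.57 and 8.44 in normal Lin- cells. Tumours A to E read 7.41, 7.74, 7.74, 8.61 and 6.48 in CD29+CD24+ cells, 9.19, 9.31, 8.69, 8.35 and 8.44 in CD29hiCD24+ cells, and 9.97, 9.21, 10.34, 8.17 and 8.84 in Lin- cells. All normal CD29+CD24+ arrays were in the low band and no tumour array was. Serpinf1 rose in tumours by 5.23 ± 0.49 in CD29+CD24+ cells (adjusted p = 2.56e-08), and the differences in CD29hiCD24+ and Lin- cells were 0.86 ± 0.49 and 0.76 ± 0.49 (adjusted p = 0.182 and 0.239). Its second probe set did not pass the filter on low values, with all group means in the low band, at 1.99 to 2.50.

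Serping1 encodes C1 inhibitor, which controls complement and the contact system. It read 2.69, 3.26 and 2.31 in normal CD29+CD24+ cells, 9.51, 7.89 and 8.52 in normal CD29hiCD24+ cells, and 11.22, 9.26 and 9.84 in normal Lin- cells. In tumours A to E it read 8.87, 6.96, 7.16, 4.24 and 5.25 in CD29+CD24+ cells, 10.95, 8.47, 8.16, 7.35 and 7.11 in CD29hiCD24+ cells, and 11.53, 9.87, 12.11, 4.97 and 10.45 in Lin- cells. Tumour A was the highest in both CD24+ gates and the Lin- array of tumour D was far below the other tumours. Serping1 rose in CD29+CD24+ cells by 3.74 ± 1.24 (adjusted p = 0.0177). The call was lost without pool F (3.71, adjusted p = 0.0613), without pool H (3.52, 0.0827) and with the description numbers as a block (3.12, 0.0776). In the other populations the differences were -0.23 ± 1.24 and -0.32 ± 1.24 (adjusted p = 0.906 and 0.858).

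Serpinh1 encodes HSP47, which holds procollagen in its folded state in the endoplasmic reticulum. It read 6.98, 6.59 and 7.43 in normal CD29+CD24+ cells, 12.14, 12.20 and 12.79 in normal CD29hiCD24+ cells, and 10.67, 10.21 and 10.21 in normal Lin- cells. Tumours A to E read 11.77, 10.97, 9.52, 11.52 and 10.58 in CD29+CD24+ cells, 12.22, 11.40, 10.71, 11.61 and 10.69 in CD29hiCD24+ cells, and 12.20, 11.24, 10.83, 11.06 and 10.57 in Lin- cells. The normal gates did not overlap, and the tumour gates overlapped. Serpinh1 rose by 3.87 ± 0.44 in tumour CD29+CD24+ cells (adjusted p = 3.22e-07). In CD29hiCD24+ cells the difference was -1.05 ± 0.44, with an adjusted p of 0.0621, or 0.0339 with the tumour or pool as a block and 0.00973 without tumour A (-1.28).

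**Figure D3:**
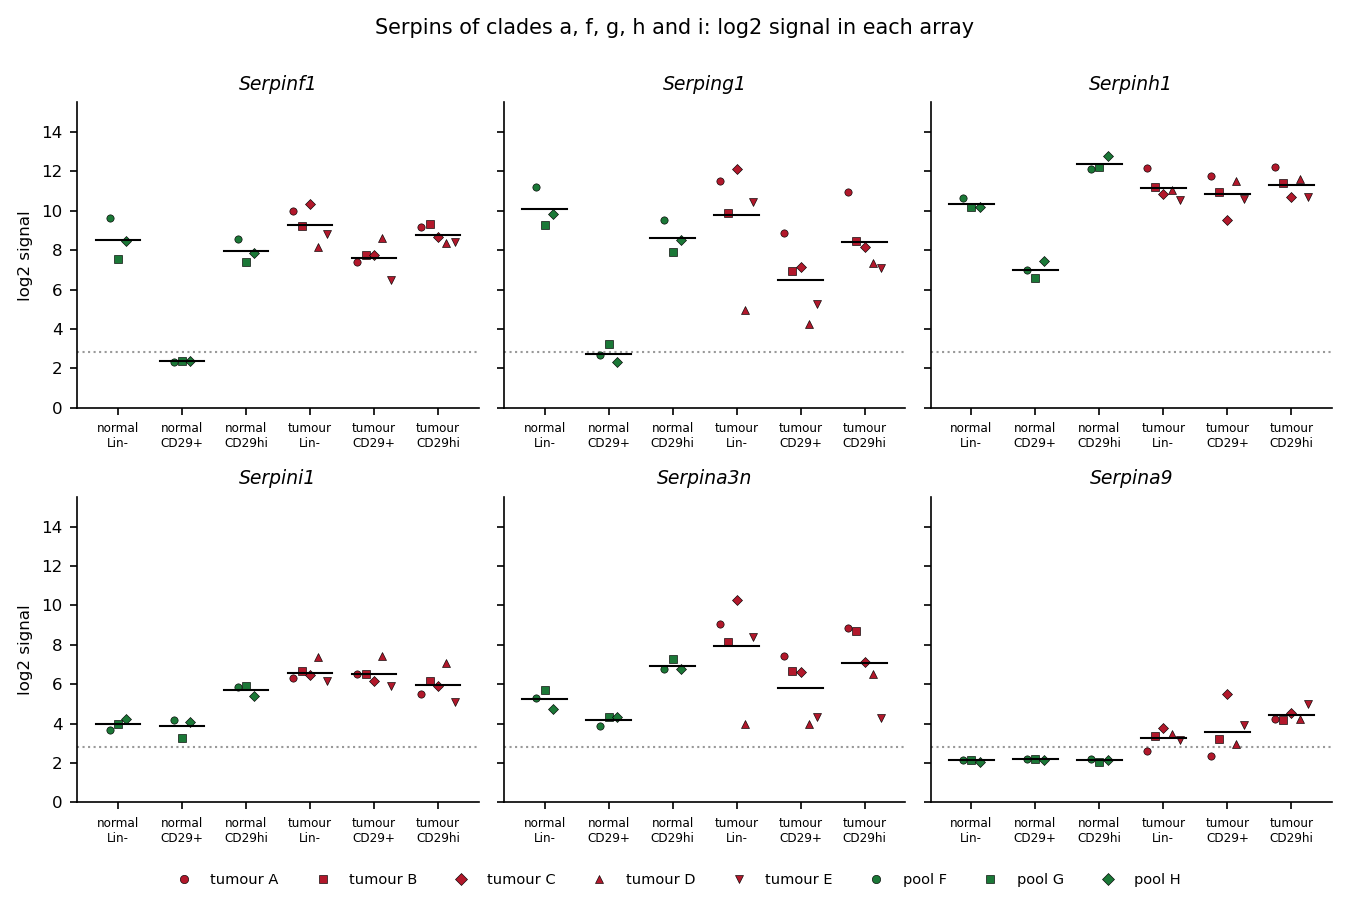
Log2 signal of 6 serpins outside clade b (y axis) in each array of the 6 groups (x axis); marker shapes give the tumour or pool, black lines the group means and the dotted line the low band at 2.83. Serpinf1, Serping1 and Serpinh1 were lowest in normal CD29+CD24+ cells, at 2.33 to 2.40, 2.31 to 3.26 and 6.59 to 7.43.

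Serpini1 encodes neuroserpin, an inhibitor of tissue plasminogen activator. It was 3.67, 3.998 and 4.21 in normal Lin- cells, 4.18, 3.29 and 4.08 in normal CD29+CD24+ cells and 5.87, 5.88 and 5.38 in normal CD29hiCD24+ cells. Tumours read 6.13 to 7.36, 5.92 to 7.44 and 5.08 to 7.09 in the same populations, with tumour D highest in each. Serpini1 rose by 2.62 ± 0.39 in Lin- cells and 2.65 ± 0.39 in CD29+CD24+ cells (adjusted p = 1.60e-05 and 1.10e-05), and the CD29hiCD24+ difference was 0.24 ± 0.39 (adjusted p = 0.668).

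Serpina9, known from germinal centre B cells, was in the low band in all 9 normal arrays, at 2.06 to 2.22, and read 2.33 to 5.51 in tumours. Its tumour CD29hiCD24+ values were 4.21, 4.17, 4.53, 4.21 and 4.97, the evenest of the 3 populations. Serpina9 rose by 2.28 ± 0.43 there (adjusted p = 0.00028), 1.41 ± 0.43 in CD29+CD24+ cells (0.0116) and 1.16 ± 0.43 in Lin- cells (0.0374). The CD29+CD24+ call was lost without pool H (1.39, adjusted p = 0.0523), and the Lin- call under 7 alternatives, at 1.11 to 1.19 without tumour B, D or E or any 1 of the pools (adjusted p = 0.0545 to 0.121).

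Serpina3n, an acute phase antichymotrypsin that also blocks granzyme B, read 4.76 to 5.69 in normal Lin- cells and 9.04, 8.12, 10.26, 3.98 and 8.37 in those of tumours A to E. Tumour D was low in Lin- and CD29+CD24+ cells, at 3.98 in both. The Lin- difference was 2.71 ± 1.11 (adjusted p = 0.0570, or 0.0436 with the tumour or pool as a block), and 3.70 without tumour D (adjusted p = 0.00242). Serpina7, which encodes a thyroxine carrier, read 3.01 to 3.64 in all arrays but 1, pool G of normal CD29+CD24+ cells, at 5.05; its difference there was -0.63 (adjusted p = 0.0599), -1.003 without pool F (adjusted p = 0.00717) and -0.03 without pool G (adjusted p = 0.903).

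Fibroblast markers were read beside the secreted serpins Serpinf1, Serping1 and Serpina3n. The mean over 12 fibroblast markers was 3.17 to 3.59 in normal CD29+CD24+ cells, 5.32 to 6.63 in normal CD29hiCD24+ cells and 8.19 to 10.22 in normal Lin- cells. It was 4.66 to 5.84, 4.78 to 5.88 and 5.74 to 10.28 in the same tumour populations, and the lowest tumour Lin- array, at 5.74, was that of tumour D, where Serping1 and Serpina3n were low. In CD29+CD24+ cells of tumour D the mean was 5.69, next to the highest, while Serping1 and Serpina3n were lowest there, at 4.24 and 3.98, and Serpinf1 was highest, at 8.61. Between the tumour gates the marker ranges were alike, and Serpinf1 and Serping1 differed by 1.20 ± 0.43 and 1.91 ± 1.07 (adjusted p = 0.114 and 0.345). From normal to tumour CD29+CD24+ cells 5 of the 12 fibroblast markers rose and 0 fell. In the same comparison 5 of 12 basal markers rose and 0 fell, and 1 of 13 luminal markers rose and 11 fell. The mean over the basal markers was 4.48 to 4.67 in normal and 8.40 to 8.88 in tumour CD29+CD24+ cells. The part of fibroblast, basal or luminal RNA in the differences of Serpinf1, Serping1 and Serpina3n was not tested.

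**Figure D4:**
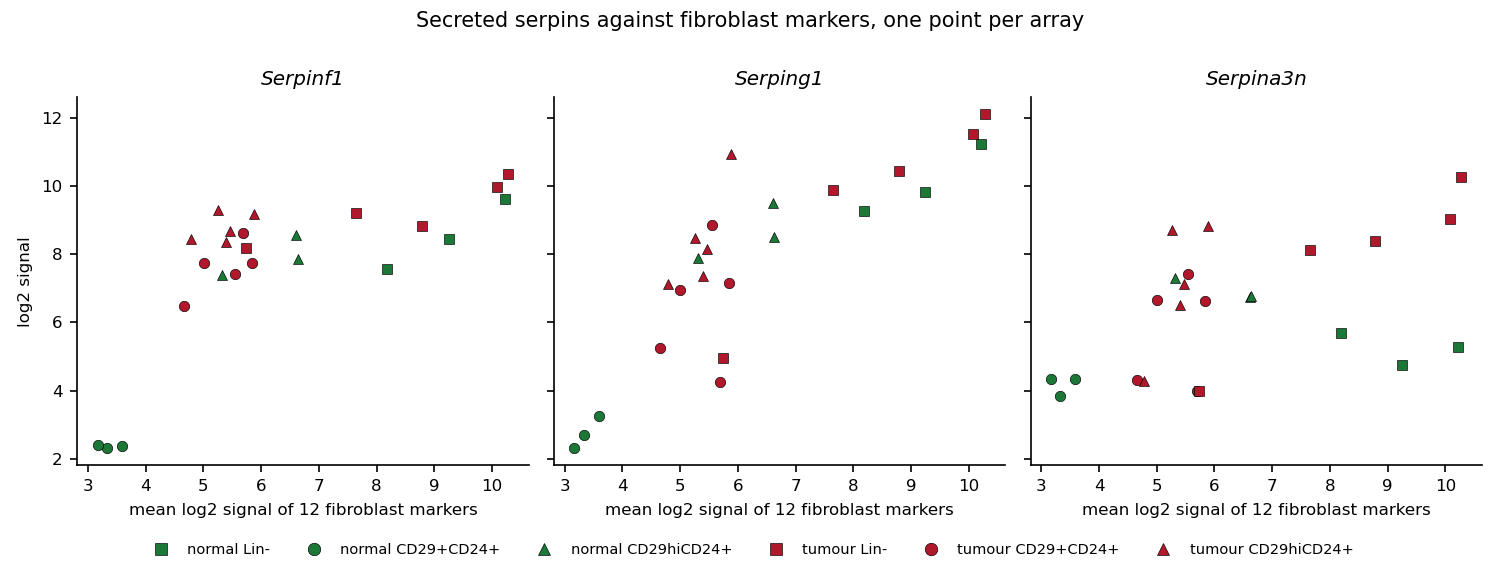
Log2 signal of Serpinf1, Serping1 and Serpina3n (y axis) against the mean log2 signal of 12 fibroblast markers (x axis), 1 point per array, with colour for normal or tumour and shape for the sorted population. Normal CD29+CD24+ arrays lie at the lower left, with marker means of 3.17 to 3.59, and tumour Lin- arrays reach 10.28.

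The study also set the stem cell gate against its counterpart within each tissue. In normal glands 21.3% of all genes were called higher in CD29hiCD24+ than in CD29+CD24+ cells and 25.3% lower; of the 24 tested serpins 9 were called higher and 0 lower (1 lower at an unadjusted p under 0.05 in limma). These were 5 of clade b, 3 of the extracellular clades and Serpinh1, with median differences of 0.09 for clade b, 0.93 for the extracellular clades and -0.03 for all genes. Serping1 rose by 5.89 ± 1.38 (adjusted p = 0.00137), Serpinf1 by 5.57 ± 0.55 (6.09e-08), Serpinb11 by 5.52 ± 1.40 (0.00259), Serpinh1 by 5.37 ± 0.49 (1.66e-08), Serpinb6b by 4.68 ± 0.59 (1.54e-06) and Serpinb6a by 2.93 ± 0.31 (1.31e-07). Serpini1 rose by 1.86 ± 0.44 (adjusted p = 0.00137). Basal markers moved the same way: 11 of 12 rose, and their mean went from 4.48 to 4.67 in the lower gate to 12.70 to 13.03 in the upper. Endothelial markers did too, with 8 of 10 higher, and fibroblast markers with 6 of 12; their part in the serpin differences was not tested.

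The normal gate calls of Serpinb1a and Serpinb5 changed with the pools that entered. Serpinb1a was higher by 3.11 ± 0.97 (adjusted p = 0.0115), with overlapping groups, since pool G read 2.08. Without pool F, whose CD29hiCD24+ array held the macrophage signal, it was 1.95 (adjusted p = 0.146), without pool H 2.70 (0.103) and without pool G 4.69 (0.000143). The mean over its probe sets gave 1.67 (adjusted p = 0.0836). Serpinb5 was higher by 0.53 ± 0.22 (adjusted p = 0.0478), and by 0.24 without pool H (adjusted p = 0.476) and 0.65 without pool G (0.0695); without tumour B, C or D, which enter through the shared variance, the adjusted p was 0.0644 to 0.0711. For Serpinb2 the difference of 1.92 ± 1.16 (adjusted p = 0.193) became -0.10 without pool H. The Serpina3n difference was 2.76 ± 1.24, with an adjusted p of 0.0751, or 0.0199 with the pool as a block, and its 2 groups did not overlap. That of Serpina7 was -0.72 (adjusted p = 0.0536, or 0.0233 with the block), and -0.07 without pool G (adjusted p = 0.798).

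In tumours 2.25% of all genes were called higher and 1.94% lower between the same gates, or 6.71% and 6.76% with the tumour or pool as a block. Of 24 serpins only Serpinb6a was called, higher by 0.96 ± 0.24 (adjusted p = 0.0269), with 12.55 to 12.77 in CD29hiCD24+ cells and 11.45 to 11.85 in CD29+CD24+ cells. That call was lost in 4 of the fits that left out a tumour: 0.97 without A, 0.97 without B, 1.02 without C and 0.94 without E, with an adjusted p of 0.0688 to 0.117. With the tumour as a block Serpinf1, higher by 1.20 ± 0.43, and Serpinb6b, by 1.07 ± 0.46, were called as well (adjusted p = 0.0350 and 0.0439, against 0.114 and 0.190 without it). Within tumours, Serping1, Serpinb6a, Serpinb6b, Serpinb6e and Serpinh1 read higher in CD29hiCD24+ cells in 5 of 5, and Serpinb3a, Serpinb8, Serpinb9g and Serpini1 read lower in 5 of 5. Of these, Serpinb9g differed by only -0.12 to -0.007, near the low band. Serpinb3a differed by -2.04 in tumour C and by -0.18 to -0.003 in A, B, D and E. The share of all genes with the same sign in 5 of 5 tumours was not counted. Serpinf1 was also called without tumour D (1.57, adjusted p = 0.0438). Serpina9 was higher by 0.83 ± 0.38 (adjusted p = 0.220), and by 1.29 without tumour C (adjusted p = 0.0125), which had read 5.51 in CD29+CD24+ cells.

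**Figure D5:**
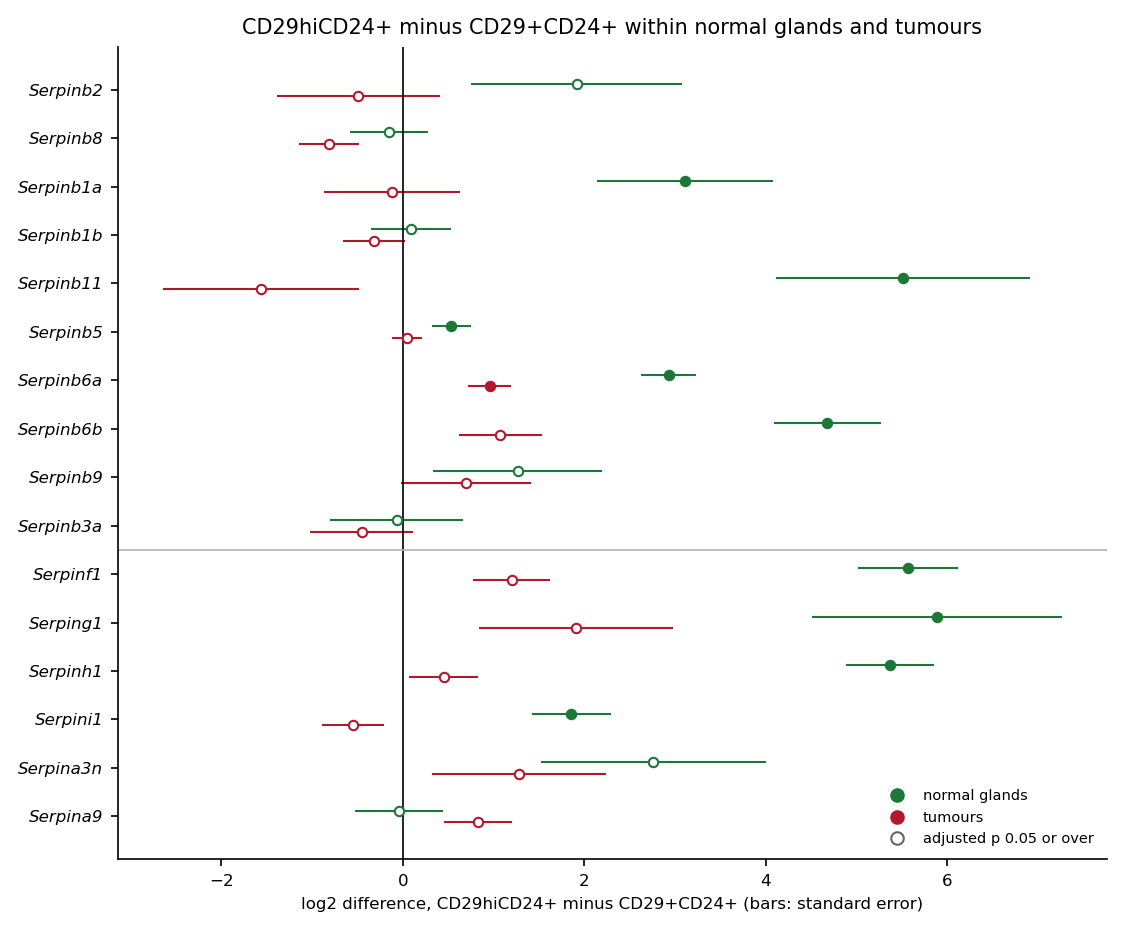
Log2 difference between CD29hiCD24+ and CD29+CD24+ cells (x axis; bars are standard errors) within normal glands and within tumours for 16 serpins (y axis; clade b above the grey line); open circles have an adjusted p of 0.05 or over. Serpinf1, Serping1, Serpinh1 and Serpinb11 differed by 5.37 to 5.89 in normal glands, and Serpinb6a was the serpin called in tumours, at 0.96.

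Whether the gate difference itself changed between normal glands and tumours was tested as an interaction. The difference, taken with its sign, was called higher (more positive) in tumours for 22.2% of all genes and lower for 19.8%, and for 0 and 7 of 24 serpins, or 1 and 8 at an unadjusted p under 0.05 in limma. All 7 had been higher in the upper gate of normal glands. The change was -7.08 ± 1.77 for Serpinb11 (adjusted p = 0.00294), -4.92 ± 0.62 for Serpinh1 (2.80e-06), -4.37 ± 0.70 for Serpinf1 (4.81e-05), -3.61 ± 0.74 for Serpinb6b (0.000611), -2.41 ± 0.55 for Serpini1 (0.00148) and -1.97 ± 0.39 for Serpinb6a (0.000396). For Serpinb1a it was -3.24 ± 1.23 (adjusted p = 0.0389), lost under 9 alternatives, among them without tumour A, B, C or E or pool H (-3.45 to -2.82), and -2.07 without pool F (adjusted p = 0.198). Serping1 changed by -3.98 ± 1.75, with an adjusted p of 0.0735, or 0.0158 with the tumour or pool as a block and 0.00851 without tumour D (-4.28). The interaction uses the arrays of both tissues again and is no separate evidence for the differences above. A sign of RNA shortening, the 3' minus 5' signal of actin, also differed between the normal gates. It was 2.53 ± 0.35 (SD, n = 3) in the upper and 1.61 ± 0.21 (SD, n = 3) in the lower normal gate. The tumour gates had 2.03 ± 0.30 and 2.06 ± 0.36 (SD, n = 5). With it as a covariate all 7 calls held, Serping1 changed by -5.84 (adjusted p = 0.023) and Serpinb5 by -0.79 (adjusted p = 0.044). The normal gates did not overlap in it, at 2.20 to 2.89 and 1.41 to 1.83. The covariate therefore cannot be separated from the gate in normal glands, and the part of RNA shortening was not tested. The 3' minus 5' signal of Gapdh did not show the difference seen for actin. It was 2.10 ± 0.29 (SD, n = 3) in the upper and 2.24 ± 0.03 (SD, n = 3) in the lower normal gate.

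Proteases and partners of the serpins were read from 5 lists. Beside their counts, 15.6% of all genes rose and 22.9% fell in tumour CD29hiCD24+ cells, 16.4% and 27.1% in CD29+CD24+ cells and 13.9% and 26.6% in Lin- cells, with the gate shares as given above. A list share near these is not a result about the list. Of 25 epithelial serine proteases, 7 rose and 4 fell in tumour CD29hiCD24+ cells, 7 and 8 in CD29+CD24+ cells, and 11 and 7 in Lin- cells. Calls in either direction came to 44%, 60% and 72% of the list, against 38.6%, 43.5% and 40.6% of all genes. Of the kallikreins, secreted trypsin-like and chymotrypsin-like enzymes of the skin, Klk7, Klk8, Klk10, Klk11 and Klk13 rose in all 3 populations, Klk6 and Klk9 in Lin- cells alone and Klk5 in none, while Klk1 fell by 1.42 ± 0.37 in CD29hiCD24+ cells (adjusted p = 0.0043). Klk8 rose by 8.17 ± 0.77, 6.09 ± 0.77 and 7.09 ± 0.77, and Klk13 by 4.30 ± 0.57, 4.98 ± 0.57 and 7.65 ± 0.57. Htra1, a protease of the matrix, rose by 6.34 ± 0.26 in tumour CD29+CD24+ cells and was higher by 5.27 ± 0.29 in the upper gate of normal glands. In the tumour gates 2 of 25 rose and 5 fell, with Tmprss4, a membrane protease, at -3.02 ± 0.51 and Klk13 at -2.55 ± 0.49 (adjusted p = 0.00181 and 0.00531).

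Of 22 coagulation and fibrinolysis genes, 3 rose and 9 fell in tumour CD29hiCD24+ cells, 8 and 5 in CD29+CD24+ cells, and 2 and 6 in Lin- cells. In either direction these were 54.5%, 59.1% and 36.4% of the list, the last under the 40.6% of all genes. Fgb, a chain of fibrinogen, fell in all 3, with differences of -5.22 ± 1.16, -9.15 ± 1.16 and -9.58 ± 1.16. Procr, the receptor of protein C, rose by 7.15 ± 0.61 in CD29+CD24+ cells, and Thbd, the thrombin receptor thrombomodulin, fell by 4.97 ± 0.70 in CD29hiCD24+ cells. In that last comparison 9 of 10 endothelial markers also fell and 0 rose. Their mean was 6.76 to 9.54 in normal and 3.10 to 3.91 in tumour CD29hiCD24+ arrays. The part of endothelial RNA in the falls of this list was not tested. Between the normal gates 8 rose and 5 fell, with Procr at 6.75 ± 0.68, Thbd at 6.38 ± 0.78 and the thrombin receptor gene F2r at 6.22 ± 0.51, and in the tumour gates 0 of 22 were called by limma (1 at an unadjusted p under 0.05).

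Of 17 cathepsins and granule proteases, 3 rose and 3 fell in tumour CD29hiCD24+ cells, 2 and 4 in CD29+CD24+ cells, and 2 and 3 in Lin- cells. These were 35.3%, 35.3% and 29.4% of the list, under the shares of all genes in each population. Ctsc, which activates the granule serine proteases, rose by 3.39 ± 0.29, 4.32 ± 0.29 and 4.52 ± 0.29. Casp1, the inflammasome caspase, rose by 5.28 ± 0.30 in CD29+CD24+ cells, and Ctse, an aspartic protease, fell by 6.86 ± 0.86 there. Non-serpin inhibitors counted 6 higher and 4 lower of 20 in CD29hiCD24+ cells, 7 and 6 in CD29+CD24+ cells, and 7 and 7 in Lin- cells, or 50%, 65% and 70% of the list in either direction. Stfa3, a cystatin-like inhibitor of cathepsins, rose by 7.09 ± 1.11, 6.27 ± 1.11 and 8.12 ± 1.11, and Slpi, a secreted elastase inhibitor, rose by 6.44 ± 0.45 in CD29+CD24+ cells.

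Collagen folding genes, the partners of Serpinh1, were compared in the gates. Of 22, 10 rose and 1 fell from normal CD29+CD24+ to CD29hiCD24+ cells, with the collagen hydroxylase genes Plod2 at 5.62 ± 0.55, P3h2 at 4.27 ± 0.60 and P3h1 at 3.48 ± 0.38 beside Serpinh1 at 5.37. In tumours 4 of 22 rose and 0 fell between the gates, each by about 1, with P4ha1 at 0.996 ± 0.223 (adjusted p = 0.0147). The interaction was lower for 6 and higher for 3 of the 22, or 40.9% against 42.0% of all genes, with Plod2 at -5.34 ± 0.69. In tumour CD29hiCD24+ cells, 3 of 22 rose and 4 fell against normal, or 31.8% against 38.6% of all genes, with Fkbp14, an endoplasmic reticulum folding enzyme, at -3.19 ± 0.59 and Colgalt2, a collagen glycosyltransferase, at -3.02 ± 0.40.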

How the data were processed

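The data are log2 signals per probe set from 24 arrays, deposited by the authors; the submitters' processing notes name RMA, GCRMA and Partek, without version, role or order. That they are log2 was judged by their range, 0.489 to 16.06. Of 45101 probe sets, 34945 had 1 gene name, from the platform annotation, 932 several, 9160 none and 64 were controls. Probe sets over 2.83, the 40th percentile, in at least 3 arrays were kept, and the one with the highest mean stood for its gene, which left 13485 of 18193 genes.

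limma 3.58.1 in R 4.3.3 fitted 6 group means with lmFit, contrasts.fit and eBayes (variance trend), tested on simulated data. The call threshold was 0.05 on p-values adjusted by Benjamini and Hochberg's method. Values after ± are standard errors unless SD is written. The block is the tumour or pool letter, by duplicateCorrelation (consensus correlation 0.321); letters pair the populations, since the titles tie them to one tumour or pool, and 2 titles of pool H carry no letter and were assigned by elimination. With group means removed, arrays of one tumour correlated at a median r of 0.578 (lowest 0.359, 15 pairs), and those of one pool at 0.142 (lowest -0.038, 9 pairs). Named serpins are all those called in at least 1 contrast with a difference of at least 2; list genes are up to 4 called genes with the largest difference per contrast. Other members (Serpinb3a, Serpina3n, Serpina7, Serpinb5 and the flat genes) were named after their values were seen. Members, lists and tests were chosen with earlier results of these data known. Figures and summaries used pandas 2.3.3 and numpy 2.4.6. The number of arrays limits the precision. Promoter and gene order tables came from RefSeq.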

Additional observations from a re-analysis of the deposited data

Results flagged for a closer look

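In tests of 72 sets of 5 tumour arrays, 1 for each tested serpin and tumour group, 4 held an array farther from the others than Dixon's critical value of 0.71 allows; chance gives about 1 in 20. These were Serpina3a in CD29+CD24+ cells of tumour C at 3.15, next to 2.82; Serpinb12 in CD29+CD24+ cells of tumour E at 2.83, next to 2.72; Serpinb6c in Lin- cells of tumour C at 3.34, next to 2.91; and Serpinb3a in CD29hiCD24+ cells of tumour E at 4.63, next to 4.14. The first 3 are flat genes near the low band.

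The gate difference changed between normal glands and tumours, by limma's interaction term, for 7 of 24 serpins, or 29.2%, against 42.0% of all genes: Serpinb11 (-7.08), Serpinh1 (-4.92), Serpinf1 (-4.37), Serpinb6b (-3.61), Serpinb1a (-3.24), Serpini1 (-2.41) and Serpinb6a (-1.97). The Serpinb1a call was lost under 9 alternatives.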

How the results depend on the processing

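Across 6 comparisons the tested serpins had 47 calls; 35 held under all 18 alternatives run, 12 were lost under at least 1, and 21 differences gained a call under at least 1. No alternative reversed a called difference. Serpins called lower in tumour CD29hiCD24+ cells numbered 2, and 1 after quantile normalization or without the pool F array alone; leaving out a tumour or pool gave 0 to 3. In tumour CD29+CD24+ cells 0 became 1 with quantile normalization, only the groups compared, the description-number block or the actin covariate (0 to 1 on leaving one out), in Lin- cells 0 became 1 with the description-number block, and for the normal gates 0 became 1 with the replicate block, quantile normalization, no filter or the actin covariate (0 to 1 on leaving one out). For the tumour gates 1 serpin called higher became 3 with the replicate block (0 to 2 on leaving one out), and 565 genes became 1817 with the replicate block, 1263 with the description-number block, 149 with only the groups compared and 207 to 565 on leaving one out. For the interaction 0 serpins called higher became 1 without the filter (0 to 1 on leaving one out). The block changed no other serpin call than those given. Quantile normalization moved the median interaction of all genes from 0.04 to 0.16. The filter at the 60th percentile, the mean over probe sets and the fit without a trend kept these counts within 1.5 times. With 3 pools, precision is limited, and differences that start in the low band have only a compressed size.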
